A study of Homo sapiens with 8 samples.

Results

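Expression of 48 genes of mitosis and of the spindle checkpoint was examined in ALL-SIL, a cell line from T-cell acute lymphoblastic leukemia in which the homeobox gene TLX1 is active. A gene was represented by its probe set with the highest mean signal among those annotated to that symbol alone, and all 48 genes were measured, out of 13102 genes tested. Signals are log2 RMA values, so a change of 1 is a doubling, and signals of different probe sets are not comparable as levels. RNA was hybridised to 8 Affymetrix arrays, 2 in each of 4 groups. In the TCR experiment both groups carried a lentiviral TCRα/β-GFP vector, whose receptor sequence came from Jurkat, another T-cell leukemia line. One of these groups spent 48 h on OP9-DL1 stroma, mouse cells that present the Notch ligand DL1 (TCR activation), and the other was kept without stroma (no activation). The growth notes also name a murine class II-restricted TCR-HY vector, and the arrays of this experiment are taken here as their own characteristics describe them. In the hairpin experiment cells carried either a TLX shRNA or the shRNA-pLKO.1-puro control and were selected with puromycin. RNA was collected early, before apoptosis. All results come from a single cell line and a single hairpin sequence, and receptor engagement cannot be told apart from the other effects of stroma. The genes that passed limma's test on TCR activation included the Y-linked DDX3Y, EIF1AY, KDM5D, RPS4Y1, USP9Y and ZFY. Whether the groups of the TCR experiment also differed in their cell population was not tested. Nothing in the labels says that replicates were separate cultures, so the p-values rest on a spread among arrays that may be technical.

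Mitosis is entered when cyclin B with CDK1, supported by the Aurora and Polo kinases, drives chromosome condensation and spindle assembly. Kinetochores, protein assemblies built on the centromere, bind spindle microtubules, and as long as one is unattached the spindle checkpoint proteins of the MAD and BUB families and TTK restrain CDC20. Once all are attached, CDC20 activates the anaphase-promoting complex, securin (PTTG1) and cyclin B are degraded, and separase (ESPL1) cuts cohesin. Most of these genes are transcribed in G2 and mitosis, through the MuvB complex with B-MYB and FOXM1, so in a bulk culture their RNA follows the share of dividing cells. In these arrays, fewer cells in mitosis and less RNA per cell cannot be told apart.

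The cells carried T-cell RNA: 14 of 15 T-cell markers lay above the array median in all 8 arrays, and RAG2 was the exception. No member fell below the array median in the mean of any group. TLX1 itself read 8.66 and 8.27 with the control hairpin and 7.98 and 7.88 with the TLX1 hairpin, a change of -0.53 that did not pass the test (limma adjusted p = 0.334). After RMA the values of each array ran from 2.15 to 14.3, so a shift of a whole array is not visible. The number of arrays limited the precision: the 95% interval of a member's change in either experiment reached between 0.23 and 0.94 to each side, with a median of 0.33.

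The promoters of most members carried the letters through which cell cycle genes of late phases are known to be read. The cell cycle homology region (CHR) is bound by MuvB, and CCAAT boxes by NF-Y. RefSeq promoters (GRCh38.p14, 250 bases before to 50 after the start) were at hand for 42 of the 48 members, and FOXM1, AURKA, BIRC5, BUB3, TTK and TPX2 had no entry. The letters TTTGAA or TTCGAA, searched on both strands as the CHR, stood in 30 of 42 member promoters (71.4%), against 46.2% of 91 other mitosis genes, 5.88% of 34 replication genes and 11.6% of the 10506 tested genes with a promoter. In 26 of the 30, they lay within 60 bases of the start. CCAAT on either strand stood in 66.7% of member promoters and 36.8% of those of all tested genes, and both motifs together in 50.0% and 5.07%. Matches of both motifs overlapped in 2 of the 42 member promoters. Neither was found in CDC25B, CDC25C, MAD1L1, CENPE and KIF2C within this window. Shown are the last 150 bases before the start, 5′ to 3′ on the gene's strand, for the single gene that passed a test (MAD1L1) and for a kinesin, a kinase, the checkpoint target and a centromere histone that are described below, with both motifs in capitals.

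MAD1L1, chr7:2232946-2233095, minus strand: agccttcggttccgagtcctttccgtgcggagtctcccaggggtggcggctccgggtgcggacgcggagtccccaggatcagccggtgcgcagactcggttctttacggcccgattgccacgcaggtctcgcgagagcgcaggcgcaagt
KIF11, chr10:92592980-92593129, plus strand: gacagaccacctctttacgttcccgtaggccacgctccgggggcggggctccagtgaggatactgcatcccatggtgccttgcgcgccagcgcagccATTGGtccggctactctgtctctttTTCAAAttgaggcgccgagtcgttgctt
PLK1, chr16:23678739-23678888, plus strand: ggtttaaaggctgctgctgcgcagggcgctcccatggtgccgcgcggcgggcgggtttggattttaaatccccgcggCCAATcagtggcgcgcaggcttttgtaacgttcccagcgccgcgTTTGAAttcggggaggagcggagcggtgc
CDC20, chr1:43358831-43358980, plus strand: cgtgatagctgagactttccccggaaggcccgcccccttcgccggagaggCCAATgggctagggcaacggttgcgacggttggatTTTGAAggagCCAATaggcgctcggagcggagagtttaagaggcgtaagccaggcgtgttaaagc
CENPA, chr2:26785906-26786055, plus strand: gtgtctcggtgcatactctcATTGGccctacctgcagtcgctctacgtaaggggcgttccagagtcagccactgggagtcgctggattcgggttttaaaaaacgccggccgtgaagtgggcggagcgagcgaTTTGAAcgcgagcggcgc

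In these stretches the CHR letters began 28 bases before the start in KIF11, 29 in PLK1, 65 in CDC20 and 18 in CENPA. A match describes letters and not a bound site. Members with the CHR letters had a median change of 0.11 on TCR activation (n = 30) and those without it 0.15 (n = 12), and with the TLX1 hairpin the medians were -0.01 and -0.09. The members thus had similar medians with and without these letters, and no test was made of this split.

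On TCR activation no mitosis gene passed the test adjusted over all genes. Of the 48 members, 0 passed limma's test at an adjusted p of 0.05, against 0.618% of the 13102 genes (0.366% higher, 0.252% lower). By size the members leaned upward: 39 of 48 had a change above 0, against 55.0% of all genes, with a median of 0.13 against 0.02. Arrays of the same group leaned too. Without activation replicate 2 was lower for 35 of 48 members (median -0.08), and with it higher for 37 (median 0.02). Of all genes, 51.9% and 49.8% were higher in replicate 2. The members moved together between arrays, so they are not separate observations. Both activated arrays lay above both arrays without activation for 33 members and below them for 7. The same order was seen in 32.0% of all genes for higher and 25.4% for lower. At an unadjusted p under 0.05, 4 members were higher (TTK, CENPA, SPC25 and KIF11) and 1 was lower (MAD1L1), where all genes gave 3.98% and 3.43%. TTK and CENPA were named after their values were seen. Changes ran from -0.52 to 0.42, and 47 of 48 stayed under 0.5 in size.

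**Figure D1:**
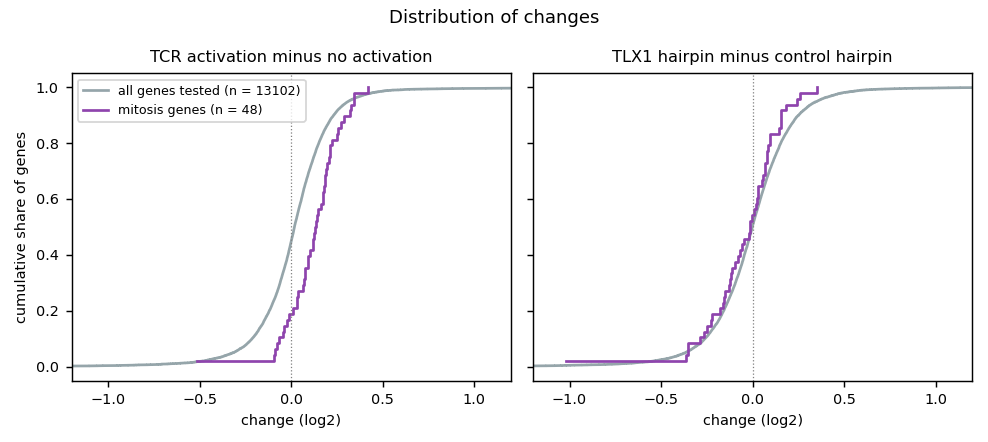
Cumulative share of genes (vertical axis) with a change up to the value on the horizontal axis (log2) for the 48 mitosis genes and all 13102 genes tested, in each experiment. On TCR activation the members' curve lies to the right of that of all genes (medians 0.13 and 0.02), and with the TLX1 hairpin the medians are -0.01 and 0.00.

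Among proliferation markers and their regulators, FOXM1, a transcription factor of mitotic genes, had the smallest p on TCR activation. It read 8.79 and 8.69 without activation and 8.83 and 8.93 with it, a change of 0.15 (SE 0.15, limma adjusted p = 0.965). The activated arrays were the higher ones, by less than the error. MKI67, the gene of the proliferation antigen Ki-67, changed by 0.13 and TOP2A, topoisomerase II, by 0.10.

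Of the 6 cyclins, CDK1 and CDC25 phosphatases, 5 had changes above 0, from 0.04 to 0.22, and CDC25B had -0.06. CDK1, the kinase that drives mitotic entry, read 11.25 and 11.14 without activation and 11.38 and 11.40 with it. The groups did not overlap, and the change of 0.20 had an unadjusted p of 0.146 in limma. The other CDK1 probe sets had larger changes, 0.42, 0.43 and 0.56, and the mean of its probe sets gave 0.40. The probe set with 0.56 was dim, at 5.31 and 5.19 without activation against an array median of 5.30, and it is part of that mean. Cyclin B1 (CCNB1) moved by 0.22 and cyclin A2 (CCNA2) by 0.18.

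Among the 4 mitotic kinases PLK1, which acts in centrosome maturation and spindle assembly, had the largest change. Its signal was 6.50 and 6.68 without activation and 6.81 and 7.01 with it, 0.32 higher (SE 0.14, interval -0.0021 to 0.638, limma adjusted p = 0.676). Both activated arrays were above both others. AURKA and PLK4, kinases of centrosome maturation and centriole duplication, had 0.14 and 0.12, and NEK2, a kinase of centrosome separation, -0.08.

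All 4 genes of the chromosomal passenger complex, which corrects faulty attachments, were higher in both activated arrays, by 0.13 to 0.26, and 0 of 4 passed the test. BIRC5, survivin, had 10.58 and 10.47 without activation and 10.75 and 10.81 with it (change 0.26, SE 0.14). INCENP, the scaffold of the complex, read 6.36 and 6.30 against 6.58 and 6.51. The catalytic subunit AURKB changed by 0.17 and CDCA8, borealin, by 0.13.

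The 6 checkpoint genes did not move one way: BUB3, MAD2L1 and TTK were higher in both activated arrays, and BUB1, BUB1B and MAD1L1 lower. TTK, the kinase that starts checkpoint signalling, read 9.20 and 8.94 without activation and 9.42 and 9.38 with it (0.33, SE 0.12, limma adjusted p = 0.579), and the change was 0.20 without replicate 2 of the group without activation. MAD1L1 went from 8.39 and 8.55 to 7.87 and 8.03, a change of -0.52 (SE 0.12, interval -0.80 to -0.23) with an unadjusted p of 0.0031 and an adjusted p of 0.21 in limma. This was the lowest change of the 48. BUB1 and BUB1B changed by -0.09 and -0.04, and MAD2L1, which MAD1 recruits, by 0.19.

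CDC20, the protein that the checkpoint restrains, led the 3 genes of the anaphase switch. It had 9.44 and 9.34 without activation and 9.65 and 9.71 with it, a change of 0.29 with an unadjusted p of 0.232 in limma. ESPL1 and PTTG1 had 0.18 and 0.12, and all 3 were higher in both activated arrays. The printed CDC20 promoter holds both motifs.

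SPC25, a subunit of the NDC80 complex that couples kinetochores to microtubules, had the highest change of all members. Its signal was 7.30 and 6.97 without activation and 7.53 and 7.59 with it, 0.42 higher (SE 0.13, interval 0.13 to 0.72, limma adjusted p = 0.407). Without replicate 2 of the group without activation, its low array, the change was 0.26. Its partners NDC80 and NUF2 had 0.03 and 0.08. CENPA, the centromeric histone, read 8.08 and 8.18 against 8.36 and 8.40, a change of 0.25, while CENPF and CENPE had 0.01 and 0.21.

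All 5 spindle motors and assembly factors were higher in both activated arrays. KIF11, the motor that pushes the spindle poles apart, read 9.90 and 9.63 without activation and 10.10 and 10.11 with it (0.34, SE 0.15, limma adjusted p = 0.672). The array of replicate 2 without activation was the low one, and without it the change was 0.21. TPX2, KIF2C, KIF4A and KIF15 had changes between 0.07 and 0.18.

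KIF20B, a kinesin of cytokinesis, had the largest change among the 7 genes of the central spindle and cytokinesis. It went from 9.26 and 9.01 to 9.47 and 9.49, 0.34 higher (SE 0.18, limma adjusted p = 0.793), or 0.22 without replicate 2 of the group without activation. Of the others, ANLN, the contractile ring scaffold, had 0.27 and PRC1, which bundles central spindle microtubules, -0.01. The condensin genes, which compact chromosomes, had no shared direction. NCAPH read 8.51 and 8.38 against 8.65 and 8.67, a change of 0.21, and NCAPG, SMC2 and SMC4 had -0.09, -0.02 and -0.04.

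The count of members depended on how the spread was estimated. In a fit of only the TCR arrays, MAD1L1 passed as lower (limma adjusted p = 0.0388), among 866 genes (3.56% of all as higher and 3.05% as lower). With array weights 6 members passed in limma: MAD1L1 lower, and TTK, CENPA, SPC25, KIF11 and KIF20B higher, among 1350 genes.

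With the TLX1 hairpin 1 mitosis gene fell, and it was MAD1L1. Of the 48 members, 0 rose and 1 fell at a limma adjusted p under 0.05, where 0.0916% of all genes passed, 0.0611% as higher and 0.0305% as lower. At an unadjusted p under 0.05, SMC4 was higher and MAD1L1 and PTTG1 were lower, against 4.21% and 4.77% of all genes. The members as a whole were centred on no change, with a median of -0.01, as were all genes, and 22 of 48 were above 0 (all genes 49.6%). Both TLX1 hairpin arrays lay above both control arrays for 4 members (BUB3, MAD2L1, KIF4A and SMC4) and below them for 5 (CDC25C, AURKA, MAD1L1, PTTG1 and SPC25). All genes gave 14.1% and 14.6%. Several of these genes were named after their values were seen.

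MAD1L1 encodes MAD1, which sits at unattached kinetochores and presents MAD2 for activation. It had 1 probe set, which read 8.14 and 8.24 with the control hairpin and 7.25 and 7.09 with the TLX1 hairpin. Both TLX1 hairpin arrays were below all 6 others. The change was -1.02 (SE 0.12, interval -1.30 to -0.74), or 0.493 of the control level (interval 0.405 to 0.599), with an unadjusted p of 4.07e-05 and an adjusted p of 0.0475 in limma. The size held in each of 16 alternatives, between -1.10 and -0.94, but the call was lost in 11 of them. The standard error of 0.12 pools the spread of all 4 groups, and in the fit of the hairpin arrays alone it was 0.16. Both values are moderated by limma with the spread of the other genes. The SD of MAD1L1 itself was 0.11 in each TCR group, 0.07 with the control hairpin and 0.11 with the TLX1 hairpin. Its unadjusted limma p in the fit of the hairpin arrays alone was 8.45e-04. The call was lost when only the hairpin arrays were fitted (limma adjusted p = 0.99984), with array weights (0.449), with a trended prior (0.0572) and in 7 of 8 fits that left out 1 array, with limma adjusted p between 0.0502 and 0.218. Without replicate 1 of the control hairpin the adjusted p was 0.00511. MAD1L1 thus lay lower in the treated group of both experiments, and the difference between its changes, 0.50 (SE 0.17, interval 0.10 to 0.90), did not pass the test (limma adjusted p = 0.447). The partner MAD2L1 had 0.08 with the TLX1 hairpin, and BUB1, BUB1B, BUB3 and TTK had -0.08, -0.13, 0.18 and 0.09.

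**Figure D2:**
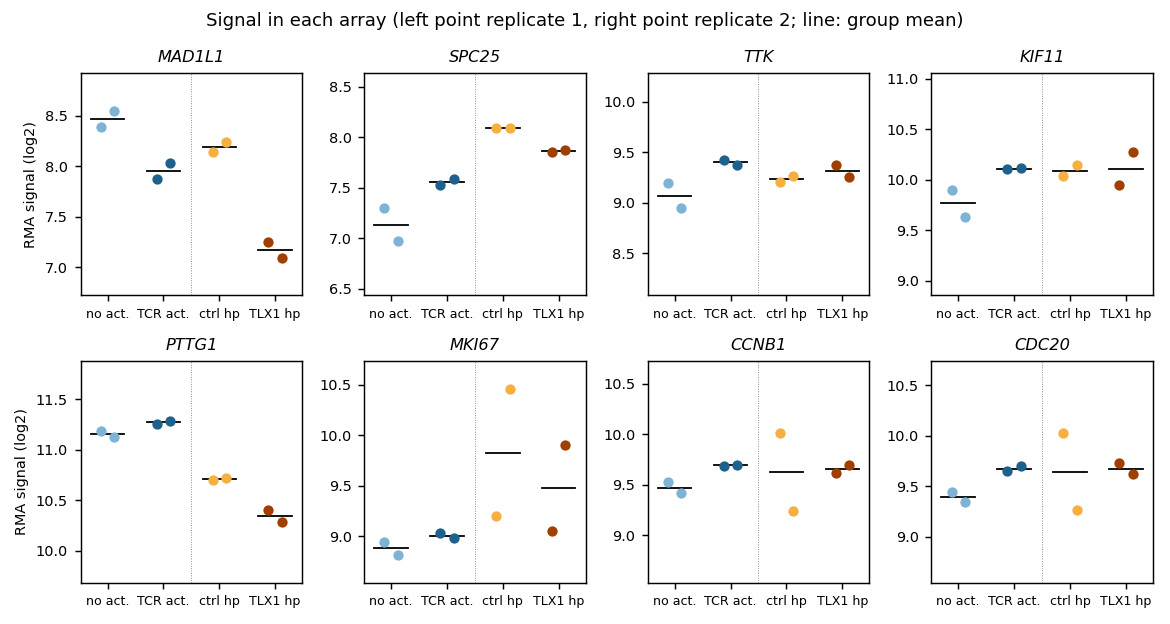
RMA signal (vertical axis, log2, one scale length for all panels) of 8 mitosis genes in each array, with no activation and TCR activation left of the dotted line and control and TLX1 hairpin right of it; lines are group means. MAD1L1 lies lower in the second group of each experiment, and MKI67, CCNB1 and CDC20 spread most between the control hairpin arrays.

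PTTG1, securin, had the next smallest p. It read 10.70 and 10.72 with the control hairpin and 10.40 and 10.28 with the TLX1 hairpin, a change of -0.37 (SE 0.10, interval -0.60 to -0.13, limma adjusted p = 0.338). The groups did not overlap. Near-identical copies of PTTG1 exist in the genome, so its signal may include them. CDC20 and ESPL1 of the same step had 0.03 and -0.16.

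SMC4, a core ATPase of condensin, was the gene with the smallest p among those above 0. It read 11.76 and 11.86 with the control hairpin and 12.00 and 12.10 with the TLX1 hairpin (0.24, SE 0.10, interval 0.0034 to 0.49, limma adjusted p = 0.546). Its partner SMC2 had -0.01, and the other condensin genes NCAPG and NCAPH had -0.28 and -0.11. The other SMC4 probe sets had 0.13 and -0.14, and the mean of the probe sets gave 0.08. The condensin subunits did not share a direction here either.

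SPC25 was 8.09 in both control arrays and 7.85 and 7.87 with the TLX1 hairpin, a change of -0.23 (SE 0.13). CENPE, a kinetochore motor, had the highest change of the members by the probe sets used, 0.35, with control arrays at 8.16 and 8.88. CENPF had 0.15 by the probe set used, and its other probe sets had 0.68 and -0.10. CDC25C, a phosphatase that activates CDK1, read 6.86 and 7.12 with the control hairpin and 6.77 and 6.68 with the TLX1 hairpin (-0.26, SE 0.13, limma adjusted p = 0.601), or -0.14 without control replicate 2. SPC25 and CDC25C were lower without overlap, and CENPE overlapped.

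KIF2C, a kinesin that takes microtubules apart, had 10.56 and 11.06 in the control arrays and 10.34 and 10.58 with the TLX1 hairpin, a change of -0.35 with overlapping arrays. AURKB read 9.21 and 9.71 against 9.14 and 9.28 (-0.25, SE 0.16). For both genes the control array of replicate 2 was the high one. Without control replicate 2 the changes were 0.00 for AURKB and -0.11 for KIF2C, and without control replicate 1 they were -0.50 and -0.60 and both genes passed the test (limma adjusted p = 0.0256 for AURKB and 0.0257 for KIF2C).

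NEK2, KIF23, FOXM1, CDK1, CCNB1 and PLK1 had overlapping hairpin arrays. NEK2 read 9.05 and 8.68 with the control hairpin and 9.11 and 8.93 with the TLX1 hairpin, a change of 0.15. KIF23, a kinesin of the central spindle, read 8.04 and 8.26 against 8.22 and 8.39 (0.16, SE 0.14), and its mean over several probe sets gave -0.01. FOXM1 changed by 0.01, CDK1 by 0.08, CCNB1 by 0.03 and PLK1 by 0.06. None of these passed limma's test.

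MKI67 separated the replicate arrays more than the hairpins. It read 9.19 and 10.46 with the control hairpin and 9.05 and 9.90 with the TLX1 hairpin, so replicate 2 was higher by 1.27 and 0.85. The fitted change of -0.35 had an interval from -1.29 to 0.59, and it was 0.28 without control replicate 2 and 0.08 without TLX1 hairpin replicate 1. All 4 MKI67 probe sets were higher in replicate 2 of both groups, by 0.83 to 1.27 and by 0.80 to 0.92. Some other members went the opposite way between the control arrays. CCNB1 read 10.02 and 9.24 there, and CDC20 10.02 and 9.27. Both CCNB1 probe sets, both of NEK2, all 4 of BIRC5 and all 5 of BUB1 were lower in control replicate 2. In all, 36 of 48 members were higher and 12 lower in control replicate 2, where 55.7% of all genes were higher. MKI67, CCNB1, CDC20, BIRC5 and BUB1 were chosen for this description after their values were seen.

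**Figure D3:**
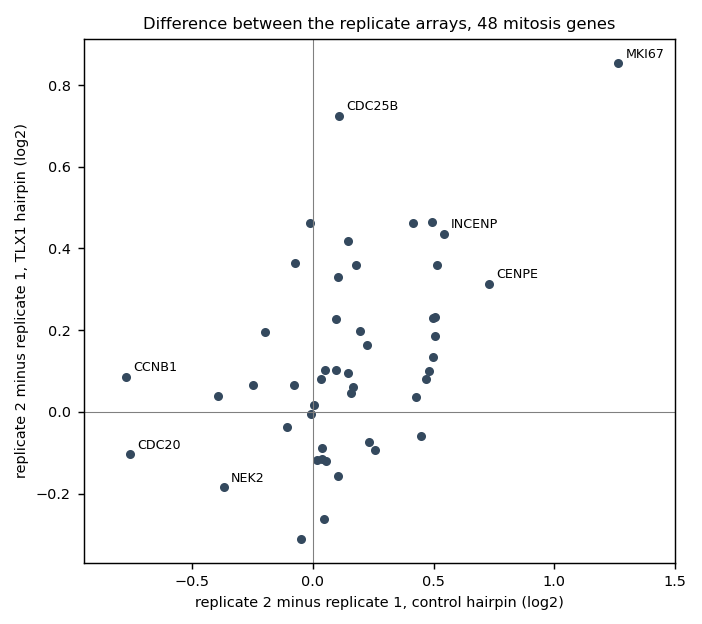
Replicate 2 minus replicate 1 of each of the 48 mitosis genes (log2) in the control hairpin group (horizontal axis) and the TLX1 hairpin group (vertical axis). MKI67 lies at 1.27 and 0.85, and CCNB1 and CDC20 lie at -0.77 and -0.76 on the horizontal axis.

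The median SD of the members was 0.07 without activation, 0.03 with TCR activation, 0.13 with the control hairpin and 0.09 with the TLX1 hairpin (n = 2 each). Replicates differed by more than 0.5 for 0, 0, 8 and 2 members, where all genes gave 1.08%, 0.542%, 20.2% and 6.83%. The hairpin arrays were thus the less precise ones for the members, as they were for all genes. Leaving out replicate 1 of the control hairpin brought 6 members past the threshold of limma (CCNB1 higher; AURKB, MAD1L1, NDC80, KIF2C and NCAPG lower), among 1796 genes.

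The changes of both experiments were compared by testing their difference, the TCR change minus the TLX1 hairpin change. No member passed (0 of 48, against 0.382% of all genes by limma's adjusted p), and the median difference was 0.19, with 37 of 48 above 0 against 53.8% of all genes. Unadjusted p under 0.05 were reached by 3 members, each with a positive difference, where all genes gave 4.65% in that direction and 4.09% in the other. These were SPC25 with 0.65 (SE 0.18, limma adjusted p = 0.321), MAD1L1 as given above, and PTTG1 with 0.48 (SE 0.14, limma adjusted p = 0.365). SPC25 and PTTG1 were named after their values were seen. SPC25 and PTTG1 had a positive TCR change and a negative hairpin change, whereas MAD1L1 was negative in both.

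Of 105 other listed genes of mitosis, 101 were tested and 0 passed limma's test in either experiment or in the difference, with medians of 0.07 on TCR activation and -0.04 with the TLX1 hairpin. On TCR activation an unadjusted p under 0.05 was reached by 8 of the 101 as higher and by 0 as lower (all genes 3.98% and 3.43%). With the TLX1 hairpin it was reached by 2 as higher and 9 as lower (4.21% and 4.77%), and for the difference by 12 and 0 (4.65% and 4.09%). CENPN, which binds the centromeric CENPA nucleosome, was nearest to the threshold. It read 8.81 and 8.70 without activation and 9.53 and 9.51 with it, a change of 0.76 (SE 0.12, limma adjusted p = 0.0535).

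CENPN passed in 5 of 16 alternatives, among them leaving out either control hairpin array (limma adjusted p = 0.0228). MYBL2, the gene of B-MYB, had 0.43 on TCR activation (limma adjusted p = 0.206) and CEP55, a cytokinesis gene, 0.44 (limma adjusted p = 0.341). MIS18A, which helps to load CENPA, had 0.47. In the fit of only the TCR arrays 8 genes of these lists passed, all higher, and CENPN, MYBL2, CEP55 and MIS18A were among them. With array weights 13 passed, all higher.

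With the TLX1 hairpin the smallest p among these lists belonged to CENPH, a gene of the inner kinetochore, which read 8.23 and 8.60 with the control hairpin and 7.86 and 7.75 with the TLX1 hairpin (-0.61, SE 0.14, limma adjusted p = 0.249). RACGAP1 of the central spindle had -0.45, and HMMR, a spindle protein, 0.49. Without control replicate 1 these 3 were among 16 genes of these lists that passed limma's test.

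Genes of replication and S phase are set beside the mitosis genes because both follow the share of cycling cells. Of 38 tested, 0 passed in either experiment. The median was 0.16 on TCR activation, with 35 of 38 above 0 (all genes 55.0%), and -0.16 with the TLX1 hairpin, with 10 of 38 above 0 (all genes 49.6%). At an unadjusted p under 0.05, 7 were higher and 0 lower on TCR activation, against 3.98% and 3.43% of all genes, and 0 were higher and 6 lower with the TLX1 hairpin, against 4.21% and 4.77%. The difference had a median of 0.32, with 36 of 38 above 0 (all genes 53.8%). Its unadjusted p was under 0.05 for 11 genes as higher and for 0 as lower (all genes 4.65% and 4.09%), and 0 passed limma's adjusted test.

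Of the 48 members, 26 had several probe sets above the dim filter, and these did not always share a sign. On TCR activation the sign was shared in 20 of 26 (17 higher, 3 lower), and with the TLX1 hairpin in 15 of 26 (5 higher, 10 lower). The genes of mixed sign on TCR activation were BUB1, BUB3, CCNB2, NEK2, PLK4 and TOP2A. With the TLX1 hairpin they were AURKA, BIRC5, BUB1, BUB3, CDK1, CENPF, ECT2, KIF23, MKI67, NEK2 and SMC4. The filter looked at all 8 arrays, so a kept probe set could be dim throughout the experiment judged. PLK4 was mixed on TCR activation only through such a probe set (-0.03), and its others had 0.12 and 0.10. AURKA was mixed with the TLX1 hairpin only through such a probe set (0.06), and its others had -0.05 and -0.04. MAD1L1, SPC25, PTTG1 and KIF11 each had 1 probe set, so no other could be set beside it.

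Levels of the same gene can be set across the experiments with caution, since vector, selection, culture and RNA quality or handling change together and cannot be told apart. For 20 members every hairpin array lay above every TCR array, among them PLK1, CDK1, CCNA2 and AURKB, and for 5 every hairpin array lay below (CDC25B, NEK2, PTTG1, CENPE and KIF20B). All genes gave 17.8% and 36.9%. The median difference, hairpin minus TCR experiment, was 0.14 for the members and -0.16 for all genes. PLK1 lay between 6.50 and 7.01 across the TCR arrays and between 7.65 and 7.90 across the hairpin arrays.

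This difference depended on the probe set. In 10 of the 26 members with several probe sets, the difference between the experiments had both signs, and in 17 it ranged over more than 1. The widest range was 3.61, in PLK4. It came from a probe set at 3.10 to 3.32 in the TCR arrays, below the array median. This probe set passed the dim filter only through the hairpin arrays (7.17 to 7.54), and the other PLK4 probe sets had 0.51 and 0.70. Probe sets of CDC25C, CENPF, BUB3 and BUB1 also passed only through the hairpin arrays. Others of AURKA, BUB3 and KIF20B passed only through TCR arrays. Both counts include such probe sets and are thus shaped by the filter. BUB1 probe sets ran from 0.30 to 3.63, and those of NEK2 were -0.45 and 1.95. The actin 3′ minus 5′ signal, which grows as RNA is degraded, ran from 2.30 to 2.71 over the TCR arrays and from 0.57 to 0.83 over the hairpin arrays. The 18S signal ran from 12.4 to 12.7 over the TCR arrays and from 8.13 to 9.11 over the hairpin arrays. RNA quality and RNA handling cannot be told apart in these signals, and their part in the difference was not tested.

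**Figure D4:**
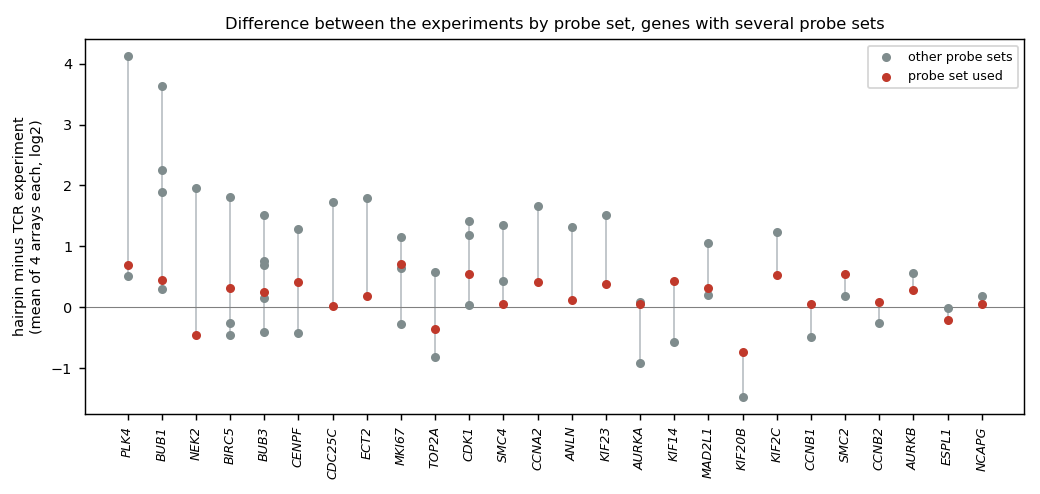
Hairpin minus TCR experiment (vertical axis, log2, mean of 4 arrays each) for every probe set of the 26 mitosis genes with several, red for the probe set used. PLK4 and BUB1 have probe sets near 0.5 and others at 4.12 and 3.63. The PLK4 probe set at 4.12 lay below the array median in every TCR array and passed the dim filter only through the hairpin arrays.

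Markers of other cells were read beside these results. Of 15 fibroblast and stroma markers, 6 lay above the array median in all arrays and 5 in none (SPARC, PDGFRA, LUM, POSTN and FAP). The list's mean signal was 6.00 to 6.32 without activation, 5.95 to 6.24 after growth on stroma and 5.32 to 5.46 in the hairpin arrays. COL3A1 differed more between replicates, with 6.18 and 7.78 without activation and 7.54 and 6.01 on stroma. The stroma is mouse and the probe sets are human, so this mean cannot tell whether stromal RNA was carried over. Of 7 granulocyte markers tested, 6 rose on TCR activation in limma (PRTN3, DEFA4, CTSG, RNASE2, PRG2 and CEBPE), against 0.366% of all genes. PRTN3 and RNASE2 exceeded the array median only in the 2 activated arrays, so they entered the test through their signal there. CEBPE exceeded it in these arrays (5.38 and 5.59) and, barely, in control hairpin replicate 2 (5.32). It too would not have entered without the activated arrays. The count of 6 of 7 is thus shaped by the filter. MPO, myeloperoxidase, went from 8.69 in both arrays to 7.82 and 8.13, a change of -0.72 (limma adjusted p = 0.156). The mean of the 10 with a probe set was 5.01 to 5.04 without activation and 6.67 to 6.72 with it, against 4.60 to 4.75 in the hairpin arrays. ELANE, AZU1 and LYZ lay below the array median in all arrays. The part of these genes in the results on mitosis genes was not tested.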

How the data were processed

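Total RNA of 8 ALL-SIL samples was measured on Affymetrix arrays. The deposited values are log2 probe set signals. Per the submitters' processing notes, the authors used RMA from affy under R 2.9.0, and its settings are not given in the sources used here. Groups and replicate numbers came from the sample titles. Of 54675 probe sets, 41097 had 1 gene symbol and no gene was named from the others. Probe sets exceeding the array median on 2 or more of the 8 arrays were kept (30816), and the brightest of these by mean stood for its gene (13102 genes).

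Changes were tested with limma 3.58.1 in R 4.3.3: a mean for each of 4 groups, eBayes, and Benjamini-Hochberg adjustment over all genes, threshold 0.05, with 4 residual and 3.62 prior degrees of freedom. The procedure was tested on simulated data with independent errors and the same spread for all genes of a group. Planted changes were recovered on average. Real genes differ in spread, so this does not measure how reliable the calls are. Columns of samples not used numbered 0. Array values were given for members past the threshold, for the member with the smallest p of each role in each experiment, and for the members whose probe sets had the highest and lowest mean signal (SMC4 and INCENP), which is no order of expression; beyond the members, for the targeted gene and up to 2 genes with the smallest p per list and contrast, and not all of these are printed. The members and lists were chosen with earlier results of these data known. Alternatives were other fits, weights, filters, probe set rules and normalization, a replicate block, and leaving out each array. For arrays no read depth exists.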

Additional observations from a re-analysis of the deposited data

Results flagged for a closer look

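The 5 results below are the genes of the lists used here whose TCR and TLX1 hairpin changes differed in limma's test of the difference. Over all 13102 genes 50 passed this test (0.382%), and those outside the lists are not described here. All are granulocyte marker genes and none is a mitosis gene. The TCR change minus the hairpin change was 5.15 (log2) for RNASE2 (limma adjusted p = 1.53e-05), an eosinophil ribonuclease. It was 3.50 for PRTN3, a neutrophil protease (0.00112 by limma), and 3.29 for DEFA4, a defensin (4.52e-04 by limma). PRG2, an eosinophil granule protein, had 2.80 (0.00705 by limma), and CTSG, cathepsin G, had 1.54 (0.0222 by limma). RNASE2 read 3.87 and 4.01 without activation, 9.01 and 8.97 with TCR activation and between 3.25 and 3.42 in the 4 hairpin arrays. The activated arrays thus stood apart from all 6 others for this gene. RNASE2 and PRTN3 passed the dim filter only through the activated arrays.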

How the results depend on the processing

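With 2 arrays a group, calls depended on the estimate of the spread more than sizes did. In limma, fitting only the 2 groups of a comparison gave 1 member, 866 genes and 8 genes of the other mitosis lists on TCR activation, and 0 members and 0 genes with the TLX1 hairpin. Array weights gave 6, 1350 and 13 on TCR activation, and 0 members and 1 gene with the TLX1 hairpin. A trended prior left 0 members with the TLX1 hairpin. Without the dim filter 1 gene of the other mitosis lists passed on TCR activation, and the stricter dim filter left 25 genes there and 25 in the difference.

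Leaving out 1 array at a time gave 29 to 217 genes, 0 members and 0 to 1 genes of the other mitosis lists on TCR activation. With the TLX1 hairpin it gave 0 to 1796 genes, 0 to 6 members and 0 to 16 listed genes, and for the difference 14 to 908 genes, 0 to 2 members and 0 to 10 listed genes. The highest of the last 6 counts came without control hairpin replicate 1, where AURKB and KIF2C were the members that passed in the difference. The median change of the members ranged from 0.08 to 0.19 on TCR activation, from -0.07 to 0.05 with the TLX1 hairpin and from 0.10 to 0.22 for the difference.

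Among the genes named by rule, the TLX1 hairpin changes that turned sign were of genes that had not passed: with the mean of the probe sets KIF23 (-0.014), CDC27 (-0.015) and SGO1 (0.060); without control replicate 2 MKI67 (0.28), NEK2 (-0.031) and AURKB (0.0023); and without TLX1 hairpin replicate 1 MKI67 (0.076). Over all 48 members, the number above 0 (22 with all arrays) was 28 without control replicate 2, 27 without TLX1 hairpin replicate 1, 19 without control replicate 1 and 18 without TLX1 hairpin replicate 2. Over the left-out arrays these 3 genes ranged from -0.98 to 0.28 for MKI67, from -0.031 to 0.34 for NEK2 and from -0.50 to 0.0023 for AURKB. The causes were not tested.

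The labels give no shared source for same-numbered replicates. Their deviations correlated over all genes at -0.14 for the TCR arrays and at 0.35 for the hairpin arrays, and over the members at 0.37 and 0.49. Among the hairpin arrays both replicates 2 had the higher 18S signal (9.11 and 8.99, against 8.13 and 8.24). With the number as a replicate block limma called 73, 9 and 59 genes on TCR activation, with the TLX1 hairpin and in the difference, and 0 members in each, MAD1L1 having an adjusted p of 0.0673 with the TLX1 hairpin.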
